A study of Homo sapiens with 6 samples.

Results

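The heterogeneous nuclear ribonucleoproteins (hnRNPs) described here are 10 abundant members of the family: HNRNPA1, HNRNPA2B1, HNRNPC, HNRNPD, HNRNPF, HNRNPH1, HNRNPK, HNRNPL, HNRNPM and HNRNPU. They account for 10 of 26329 genes and 30 of 51398 RefSeq isoforms quantified, and were picked by gene symbol. HNRNPK was included for 1 of its isoforms, NM_002140, which was listed at 0 in every library except those with shRBM10#2. Its values in comparisons of the shRBM10#2 libraries with others, alone or pooled, are therefore given as a description with no test. Its gene total was tested for shRBM10#1 against shScr only, with a spread estimated over all 6 libraries, shRBM10#2 included. Counts of tested genes cover the other 9.

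PC-9 is an EGFR-mutant lung adenocarcinoma cell line. All 6 libraries came from PC-9 cells grown in RPMI with 10% FBS and left untreated, and they fell into 3 groups of 2: cells with a scrambled shRNA (shScr), cells with shRBM10#1 and cells with shRBM10#2. Both RBM10 shRNAs target RBM10, an RNA-binding regulator of pre-mRNA splicing, and the 4 libraries together are called RBM10 KD. Labels give the control as shScr, whereas the study's methods name parental PC-9 cells, and no source used here says whether libraries of a group came from separate cultures, so p-values measure only the spread between these libraries.

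hnRNPs coat nascent transcripts in the nucleus and take part in splice-site choice, mRNA stability, export and translation. Many of their own transcripts are alternatively spliced, giving protein forms that differ by short coding segments. RBM10 acts on the same step, since it binds pre-mRNA and favours the skipping of many exons.

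RBM10 itself followed the labels. In CPM, counts scaled to a common library total with TMM factors, its gene total stood at 83.2 and 86.2 for shScr, at 59.8 and 56.4 for shRBM10#1, and at 27.2 and 26.9 for shRBM10#2. Relative to shScr this was a log2 fold change (FC) of -0.54 (SE 0.0671, edgeR FDR 0.000229) for shRBM10#1 and of -1.65 (SE 0.0701, edgeR FDR 5.02e-08) for shRBM10#2. Libraries held 31953729 to 37557507 expected counts, of which the 10 hnRNP genes took 0.762% to 0.798%. The 6 epithelial markers EPCAM, KRT8, KRT18, KRT19, CDH1 and EGFR summed to 20253 to 25694 TPM (the length-normalized unit of RSEM), while PTPRC, PECAM1, COL1A1, COL1A2 and ALB together summed to 4.0 to 5.69 TPM. The mean fragment implied by effective lengths was 231 nt in shScr replicate 2 and 265 to 281 nt in the other 5 libraries. TPM of all 10 hnRNP genes was higher in shScr replicate 2 than in shScr replicate 1, whereas CPM was higher for 7 and lower for HNRNPA1, HNRNPC and HNRNPD. The part of fragment length in this was not tested.

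Most members differed between isoforms by 1 or 2 coding segments, shown here because the isoform results turn on them. Coordinates and exon annotation are GRCh38 from GENCODE 29, sequences run 5′ to 3′ along the transcript, capitals mark the alternative coding segment, and lower case marks its coding neighbours. In HNRNPK, on the minus strand of chromosome 9, a choice between splice sites at the start of the last exon changed the final coding bases before the stop codon. The upstream site gave the 31 nt at chr9:83969410-83969440 and the downstream site the 28 nt at chr9:83969353-83969380.
HNRNPK, upstream splice site: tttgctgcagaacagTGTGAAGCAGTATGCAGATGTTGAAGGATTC
HNRNPK, downstream splice site: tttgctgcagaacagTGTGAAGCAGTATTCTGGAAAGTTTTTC

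In HNRNPM, on the plus strand, the alternative piece was a 117-nt part of coding exon 6 at chr19:8465363-8465479. In HNRNPA2B1, on the minus strand, it was the 36-nt exon 2 at chr7:26197831-26197866, which follows the start codon and separates the B1 protein from A2. In HNRNPC, on the minus strand, it was a 39-nt stretch at chr14:21230958-21230996 that separates the C2 protein from C1. In HNRNPD, on the minus strand, exon 2 (57 nt, chr4:82371528-82371584) and exon 7 (147 nt, chr4:82356537-82356683) are included or skipped separately, which gives 4 protein forms.
HNRNPM, exon 6 segment: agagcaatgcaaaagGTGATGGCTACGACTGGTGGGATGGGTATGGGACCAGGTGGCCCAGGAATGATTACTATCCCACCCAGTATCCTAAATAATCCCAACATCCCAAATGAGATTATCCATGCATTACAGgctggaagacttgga
HNRNPA2B1, B1 exon: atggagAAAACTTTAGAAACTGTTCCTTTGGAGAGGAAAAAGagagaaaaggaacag
HNRNPC, C2 segment: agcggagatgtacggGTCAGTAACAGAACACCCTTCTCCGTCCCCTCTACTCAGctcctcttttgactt
HNRNPD, exon 2: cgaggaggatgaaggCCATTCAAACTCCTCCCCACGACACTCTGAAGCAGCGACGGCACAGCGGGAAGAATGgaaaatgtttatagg
HNRNPD, exon 7: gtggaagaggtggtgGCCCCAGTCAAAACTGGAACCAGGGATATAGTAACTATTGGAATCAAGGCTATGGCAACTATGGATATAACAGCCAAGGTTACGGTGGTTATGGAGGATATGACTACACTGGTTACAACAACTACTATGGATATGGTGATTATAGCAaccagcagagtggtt

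HNRNPK encodes a KH-domain protein that binds C-rich RNA and DNA. Its gene total was close to level across the 6 libraries, at 936 and 960 CPM with shScr, 949.8 and 950.0 with shRBM10#1, and 972 and 962 with shRBM10#2. The log2 FC was 0.0035 (SE 0.0604, edgeR FDR 0.981) for shRBM10#1 against shScr and 0.029, not tested, for shRBM10#2 against shScr. What differed was the split of this total among 3 isoforms, expressed as IsoPct, the percent of the gene's transcripts assigned to each.

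RSEM assigned NM_002140 no reads in any of the 4 shScr and shRBM10#1 libraries. In the shRBM10#2 libraries it had 2934 and 2761 expected counts, or 8.0% and 7.37% of HNRNPK. A count of 0 among 29711 to 34997 HNRNPK counts allows a share of up to 0.0086% to 0.0101% by counting error alone, which does not cover error in dividing shared reads among isoforms.

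NM_031263 took 55.2% and 57.7% with shScr, 56.6% and 56.7% with shRBM10#1, and 48.8% and 48.1% with shRBM10#2. Both shRBM10#2 libraries lay below the other 4. NM_031262 took 44.8% and 42.3% with shScr, 43.38% and 43.28% with shRBM10#1, and 43.2% and 44.5% with shRBM10#2. The shRBM10#2 values of NM_031262 lay within the range of the shScr libraries. The share listed for NM_002140 was thus matched by a lower share of NM_031263.

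**Figure D1:**
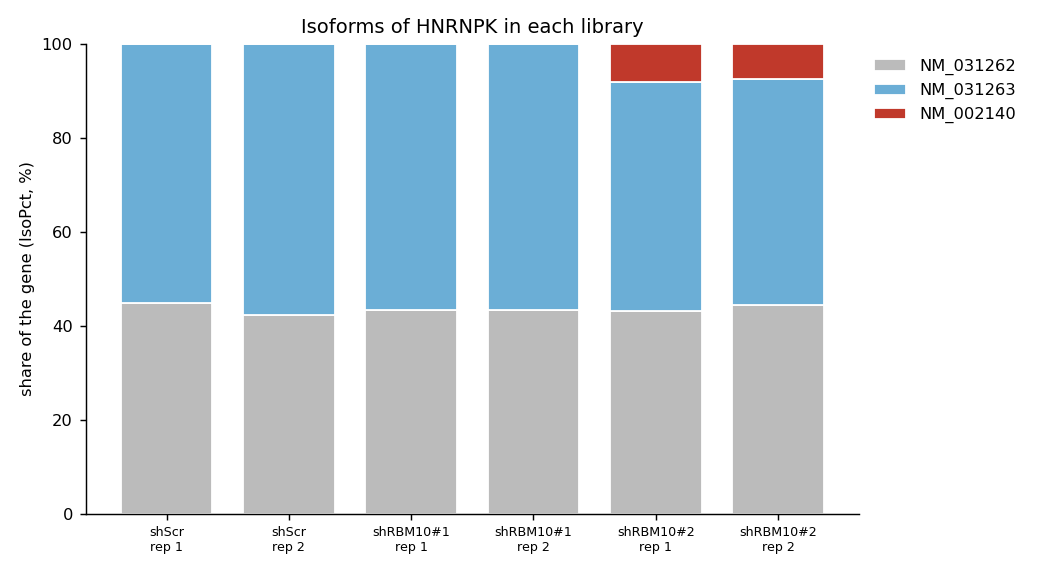
Stacked bars give the share (IsoPct, %) of the 3 HNRNPK isoforms in each of the 6 libraries. NM_002140 appears only in the 2 shRBM10#2 bars, at 8.0% and 7.37%, above a shortened NM_031263 and an NM_031262 share of 42.3% to 44.8% throughout.

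NM_002140 and NM_031263 encode the same protein: both used the upstream splice site of the last exon, and their coding sequences were identical in GENCODE. Their summed share was 55.2% and 57.7% with shScr, 56.6% and 56.7% with shRBM10#1, and 56.8% and 55.5% with shRBM10#2. The groups overlapped, and the means of 56.5% ± 1.78 (SD, n = 2), 56.7% ± 0.071 (n = 2) and 56.2% ± 0.955 (n = 2) differed by less than the replicate spread of shScr. In GENCODE NM_002140 and NM_031263 differed in their first exon, which is untranslated: 102 nt at chr9:83980503-83980604 for NM_002140 and 117 nt at chr9:83980153-83980269 for NM_031263. In the quantified set, however, NM_031263 was the shorter by 35 nt, at 2943 against 2978 nt. The GENCODE first and last exons do not give that gap, so the exact ends of the quantified isoforms were not settled.

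Which first exon NM_031262 carries was not settled by these sources, since its GENCODE transcript lists neither. Its length in the quantified set was 2918 nt, against 2978 nt for NM_002140, and that gap of 60 nt equals the distance between the splice sites of the last exon. Summing NM_002140 with NM_031262, as that length would have it, gave 44.8% and 42.3% with shScr, 43.38% and 43.28% with shRBM10#1, and 51.2% and 51.9% with shRBM10#2. The higher values with shRBM10#2 in this sum are the counts of NM_002140 themselves, for which the gene was chosen, and add nothing independent. A further RefSeq transcript, NM_001318186, which joins the first exon start of NM_031263 to the downstream splice site, was not among the quantified isoforms.

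The same on-and-off pattern was searched for over all other genes: an expected count under 3 in each of the 4 shScr and shRBM10#1 libraries and at least 100 in both shRBM10#2 libraries. It was met by 11 isoforms, and those with the highest counts belonged to MLEC (NM_001303627), CPD (NM_001199775), KLF5 (NM_001286818), TINAGL1 (NM_001204415) and SMAD1 (NM_001003688). NM_001303627 had 1317 and 1767 expected counts with shRBM10#2, fewer than NM_002140, for whose pattern HNRNPK was chosen. No matching search was made for isoforms seen only with shScr or only with shRBM10#1. Isoforms also went on and off between replicates of 1 group. With the same limits of under 3 and at least 100, 144 of 16712 isoforms differed this way between the shScr libraries, 138 of 16809 between the shRBM10#1 libraries and 160 of 17385 between the shRBM10#2 libraries. Among the members only NM_001003810 of HNRNPD did so, with 633 and 0.62 expected counts in the shRBM10#1 libraries.

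Gene totals of the other 9 members were compared next. Per length, HNRNPA1 was the highest at 1545 to 1757 TPM. HNRNPA2B1 (539 to 652 TPM), HNRNPK (501 to 587 TPM) and HNRNPF (452 to 519 TPM) followed with overlapping ranges. HNRNPC (353 to 404 TPM), HNRNPM (303 to 446 TPM), HNRNPL (275 to 424 TPM) and HNRNPD (252 to 333 TPM) overlapped in turn, and HNRNPU (150.0 to 188 TPM) and HNRNPH1 (124 to 199 TPM) were the lowest.

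With shRBM10#2, 4 of the 9 were lower than with shScr at an edgeR FDR under 0.05, where 25.9% of the 14215 genes tested were called and 13.9% were called lower. The 4 were HNRNPL, HNRNPM, HNRNPD and HNRNPH1 at 75.01%, 79.95%, 81.04% and 78.77% of the shScr mean. In bulk RNA, less RNA per cell and fewer expressing cells cannot be told apart. The median log2 FC of the 9 was -0.041, against 0.0054 over all genes tested.

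HNRNPL, which binds CA-rich repeats and regulates splicing, had 421 and 457 CPM with shScr, 401 and 387 with shRBM10#1, and 332 and 327 with shRBM10#2. The 3 groups did not overlap. The log2 FC for shRBM10#2 against shScr was -0.41 (SE 0.0653, edgeR FDR 0.001). For shRBM10#1 against shScr it was -0.16 (SE 0.0652, edgeR FDR 0.137), which did not pass.

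HNRNPM, a splicing regulator that binds GU-rich RNA, had 575 and 608 CPM with shScr, 663 and 561 with shRBM10#1, and 485 and 460 with shRBM10#2. Both shRBM10#2 libraries were below the other 4, and the shRBM10#1 libraries enclosed the shScr ones. The log2 FC was -0.32 (SE 0.0798, edgeR FDR 0.0113) for shRBM10#2 and 0.050 (SE 0.0796, edgeR FDR 0.73) for shRBM10#1.

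HNRNPD, also called AUF1, binds AU-rich elements of mRNAs and affects their decay. It had 411 and 386 CPM with shScr, 415 and 360 with shRBM10#1, and 322 and 324 with shRBM10#2. Again both shRBM10#2 libraries were below the other 4. The log2 FC was -0.30 (SE 0.0744, edgeR FDR 0.0109) for shRBM10#2 and -0.040 (SE 0.0743, edgeR FDR 0.769) for shRBM10#1.

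HNRNPH1, which binds runs of G, had 215 and 245 CPM with shScr, 216 and 177 with shRBM10#1, and 175 and 188 with shRBM10#2. The shRBM10#2 libraries were below both shScr libraries, but shRBM10#1 replicate 2 lay among them. The log2 FC was -0.34 (SE 0.0931, edgeR FDR 0.0175) for shRBM10#2 and -0.23 (SE 0.0931, edgeR FDR 0.123) for shRBM10#1.

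**Figure D2:**
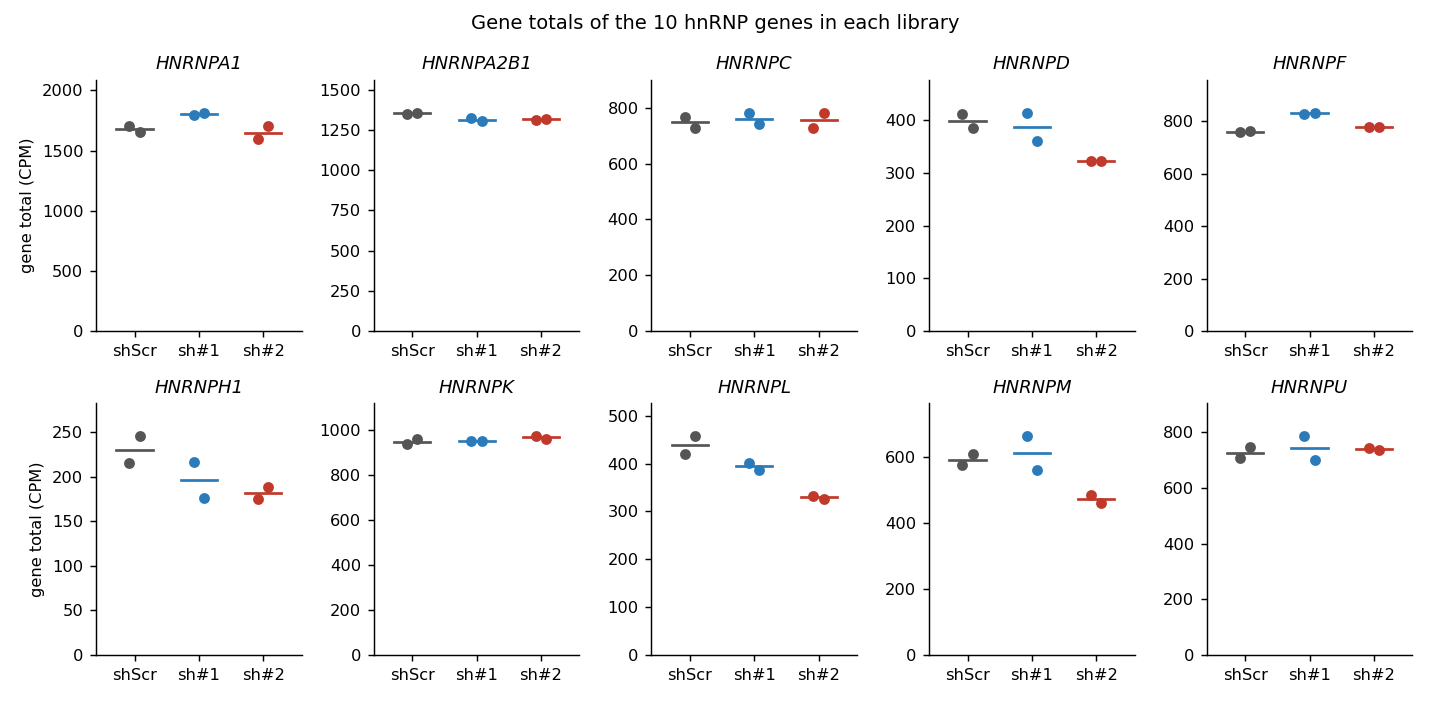
Gene totals in CPM (y axes from 0) of the 10 hnRNP genes, with 1 point per library and a line at the mean of each group of 2 (sh#1, shRBM10#1; sh#2, shRBM10#2). Both shRBM10#2 points lie below the other 4 for HNRNPD, HNRNPL and HNRNPM, while HNRNPK stays between 936 and 972.

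For shRBM10#2 against shScr, runs that left out 1 library left a single library in a group. In each of them fewer members were called than with all 6 libraries, and fewer genes over all. With limma on summed TPM, HNRNPH1 did not pass (FDR 0.0549), where 1700 genes were called in all. Over all alternatives the log2 FC stayed between -0.47 and -0.35 for HNRNPL, between -0.39 and -0.28 for HNRNPM, between -0.36 and -0.26 for HNRNPD and between -0.44 and -0.25 for HNRNPH1, with the highest FDR at 0.0344, 0.148, 0.113 and 0.158.

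The other 5 members did not pass the test with shRBM10#2. HNRNPA1, a splicing repressor that often opposes SR proteins, had 1702 and 1654 CPM with shScr and 1596 and 1701 with shRBM10#2. HNRNPA2B1 had 1348 and 1357 CPM with shScr and 1313 and 1317 with shRBM10#2. HNRNPC, which binds uridine tracts, had 766 and 729 against 726 and 783 CPM. HNRNPF, a relative of HNRNPH1, had 757 and 761 against 778 and 777 CPM. HNRNPU, which also attaches to chromatin, had 707 and 746 against 743 and 736 CPM. Their log2 FC lay between -0.041 and 0.035, each with an SE of 0.060 to 0.070 and an edgeR FDR of 0.658 to 0.908.

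With shRBM10#1 against shScr, 0 of the 9 were called by edgeR's quasi-likelihood test, where 14.1% of all genes were called. HNRNPH1 and HNRNPL, given above, were the 2 with an unadjusted p under 0.05, and DESeq2 called 0. HNRNPF had 826 and 832 CPM, above both shScr libraries, with a log2 FC of 0.13 (SE 0.060, edgeR FDR 0.179). HNRNPA1 had 1792 and 1816 CPM, also above both, with a log2 FC of 0.10 (SE 0.0633, edgeR FDR 0.308). The log2 FC of HNRNPH1 was -0.38 without shRBM10#1 replicate 1 and -0.090 without shRBM10#1 replicate 2.

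The shRNAs were also set against each other. HNRNPM, HNRNPD and HNRNPL were lower with shRBM10#2 than with shRBM10#1, at a log2 FC of -0.37 (SE 0.0798, edgeR FDR 0.00531), -0.26 (SE 0.0743, edgeR FDR 0.0211) and -0.26 (SE 0.0653, edgeR FDR 0.0121). These were 3 of 9 members, where 25.5% of all genes were called and 14.5% were called lower. HNRNPH1 did not pass (-0.11, SE 0.0932, edgeR FDR 0.40), so its total was not shown to differ between the shRNAs. The remaining 5 members lay between -0.13 and 0.0020. Runs that left out 1 library left a single library in a group. Fewer genes over all were called in each of them, and which members passed depended on the library left out. Over all alternatives the log2 FC stayed between -0.49 and -0.25 for HNRNPM, between -0.36 and -0.16 for HNRNPD and between -0.29 and -0.24 for HNRNPL. With limma on summed TPM all 3 calls were lost (FDR 0.0651 for HNRNPM, 0.132 for HNRNPD and 0.131 for HNRNPL), at a log2 FC of -0.34, -0.23 and -0.24. limma called 1311 genes in all, where edgeR called 3623.

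**Figure D3:**
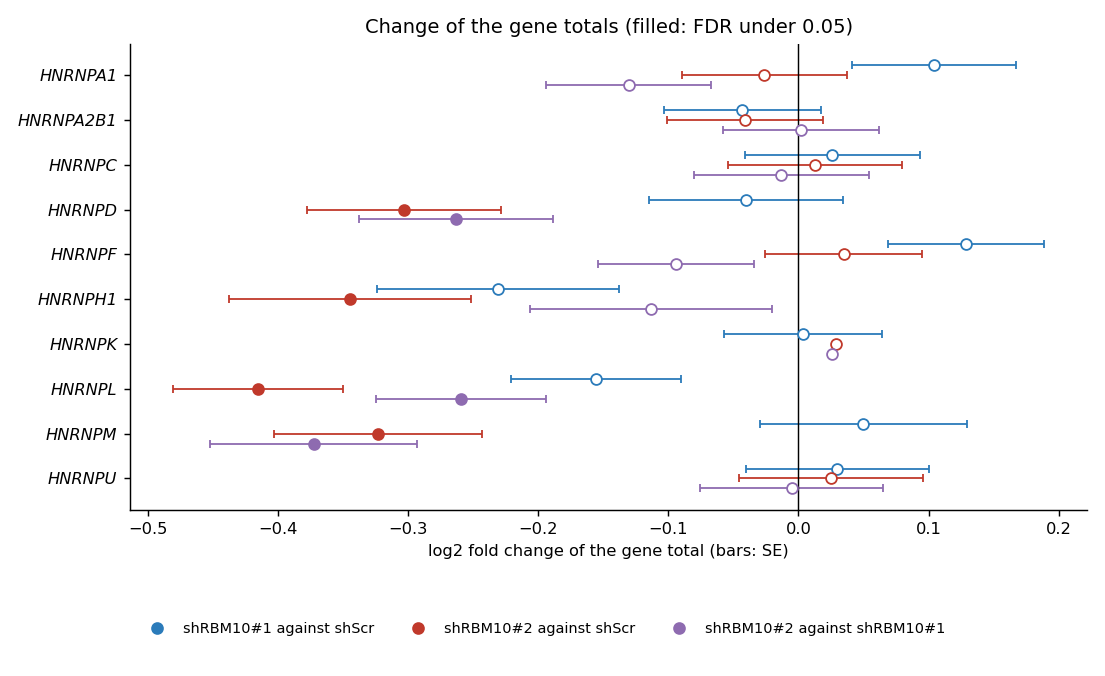
log2 FC of gene totals (x axis) with SE bars for the 10 hnRNP genes in 3 comparisons, which share libraries with one another; filled points have an edgeR FDR under 0.05, and HNRNPK has no error bar where it was not tested. Filled points belong to HNRNPD, HNRNPH1, HNRNPL and HNRNPM, all to the left of 0 and all from comparisons with shRBM10#2.

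Pooling both shRNAs as RBM10 KD against shScr, edgeR called 0 of the 9, where 1.62% of all genes were called. HNRNPH1 (log2 FC -0.29, SE 0.104, edgeR FDR 0.207) and HNRNPL (-0.28, SE 0.102, edgeR FDR 0.211) had an unadjusted p under 0.05, and DESeq2 called 0. RBM10 itself did not pass in this comparison (-0.99, SE 0.306, edgeR FDR 0.145), with a mean of 58.1 CPM for shRBM10#1 and 27.0 CPM for shRBM10#2. When the average of the separate shRNA effects was tested in place of pooled libraries, HNRNPH1 and HNRNPL were called. That test called 2611 genes in all, where the pooled one called 230.

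A list of 18 further hnRNP and related genes was followed alongside. With shRBM10#2 against shScr 3 were lower and 1 was higher, or 22.2% of the list against 25.9% of all genes. HNRNPUL2 (-0.29, SE 0.0706, edgeR FDR 0.0111), HNRNPUL1 (-0.27, SE 0.0665, edgeR FDR 0.0116) and PTBP1 (-0.23, SE 0.0659, edgeR FDR 0.0242) were the lower ones. PTBP2 (0.47, SE 0.145, edgeR FDR 0.0324) was the higher one, named after its values were seen. It was the lowest of the list, at 5.27 and 4.59 CPM with shScr and 7.08 and 6.53 with shRBM10#2. HNRNPUL1 and HNRNPUL2 are relatives of HNRNPU, and PTBP1 and PTBP2 are polypyrimidine-tract binding splicing repressors. With shRBM10#1 PTBP3 alone was called (-0.30, SE 0.0798, edgeR FDR 0.0261), or 5.56% against 14.1%, and with RBM10 KD pooled edgeR and DESeq2 called 0, with 2 at an unadjusted p under 0.05. Between the shRNAs 4 were lower and 1 was higher with shRBM10#2, or 27.8% against 25.5% of all genes. The lower ones were led by HNRNPUL1 (-0.29, SE 0.0664, edgeR FDR 0.00772), HNRNPA0 (-0.30, SE 0.0692, edgeR FDR 0.00782) and PTBP1 (-0.27, SE 0.0659, edgeR FDR 0.0095). The others, named after their values were seen, were PCBP1 (-0.25) and PTBP2 (0.44).

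Isoforms were tested in 2 ways. Taken singly, with the study's criteria of an FDR under 0.05 and an absolute log2 FC above 1, 0 of the 27 isoforms of the 9 members were called with shRBM10#1, with shRBM10#2, pooled or between the shRNAs by edgeR or DESeq2, where edgeR called 0.0227%, 0.491%, 0.0% and 0.359% of the 26464 isoforms tested. Unadjusted p was under 0.05 for 2, 6, 3 and 5 of the 27. An FDR under 0.05 alone was met in edgeR by 0, 0, 0 and 1 of them, where 0.0302%, 2.26%, 0.0% and 2.25% of all isoforms met it. The 1 was NM_001005335 of HNRNPL between the shRNAs (log2 FC -0.47, SE 0.0666, edgeR FDR 0.0451), and the call was lost with the replicate block (FDR 0.12) and without shRBM10#1 replicate 1, shRBM10#1 replicate 2, shRBM10#2 replicate 1 or shRBM10#2 replicate 2 (FDR 0.0977 to 0.255). By FDR alone DESeq2 called 2, 6, 2 and 5 of the 27, so these counts depended on the tool. It called more isoforms in all, 2426, 4598, 819 and 4231, where edgeR called 8, 597, 0 and 595. NM_031243 of HNRNPA2B1 and NM_001533 of HNRNPL were called by DESeq2 with each shRNA and pooled. Requiring at least 10 counts in every library, edgeR called 4 by FDR alone with shRBM10#2 (NM_031243, NM_001005335, NM_001533 and NM_031203) and 3 between the shRNAs (NM_002138, NM_001005335 and NM_031203). Calls over all isoforms rose as well with this filter, to 1647 with shRBM10#2 and to 1403 between the shRNAs.

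Taken as usage within a gene (edgeR diffSpliceDGE over isoforms, Simes p per gene), 0 of the 9 were called with shRBM10#1, shRBM10#2, pooled or between the shRNAs, where 0.172%, 2.75%, 0.515% and 1.92% of 6405 genes were called. Unadjusted p was under 0.05 for 2, 1, 0 and 0 of them. An exact permutation test of a single share cannot go below a 2-sided p of 0.333 for 2 against 2 libraries or 0.133 for 4 against 2, and no other test of single shares was run, so shares below are given as values beside the usage FDR.

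Among shares summed by the coding segments plotted here, HNRNPM had the widest difference between shRBM10#2 and shScr. Isoforms that keep the exon 6 segment printed above took 52.0% and 54.6% of HNRNPM with shScr, 52.2% and 56.1% with shRBM10#1, and 61.2% and 61.2% with shRBM10#2. The shRBM10#2 libraries were 7.89 points above the shScr mean of 53.3% ± 1.85 (SD, n = 2) and above all 4 others, but usage did not pass (edgeR FDR 0.521, unadjusted p 0.0573). On the TPM scale the isoform without the segment, NM_031203, stood at 178 and 203 with shScr, 209 and 156 with shRBM10#1, and 124 and 118 with shRBM10#2. NM_005968, which keeps it, stood at 191 and 242, then 226 and 198, then 194 and 183 TPM. The shRBM10#2 libraries were thus the lowest for the form without the segment, while for the form with it they reached into the range of the others. The remaining HNRNPM isoform, NM_001297418, held 0.29% to 0.70%.

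HNRNPA2B1 had the lowest usage p. Its B1 exon was in 17.3% and 15.3% of transcripts with shScr, 12.9% and 14.2% with shRBM10#1, and 13.0% and 13.3% with shRBM10#2. All 4 RBM10 KD libraries lay below both shScr libraries, and the mean differed from that of shScr by -2.72 points for shRBM10#1 and by -3.16 points for shRBM10#2. Usage gave an edgeR FDR of 0.649 (unadjusted p 0.0308) for shRBM10#1 and of 0.165 (unadjusted p 0.00871) for shRBM10#2. limma's diffSplice on the same libraries gave FDR 0.0198 for shRBM10#2, and it called 571 genes where edgeR called 176, so the result for HNRNPA2B1 depended on the method.

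HNRNPL isoforms differed in their N-terminal coding part, present in NM_001533 and absent from NM_001005335. NM_001533 took 53.9% and 56.6% with shScr, 49.8% and 42.4% with shRBM10#1, and 53.5% and 52.6% with shRBM10#2. The shRBM10#1 libraries were the lowest, with a mean that differed from that of shScr by -9.17 points, and stood 7.47 points apart from each other. Usage for shRBM10#1 did not pass (edgeR FDR 0.692, unadjusted p 0.0365). With shRBM10#2, where the total fell, both isoforms were lower: NM_001533 had 187 and 240 TPM with shScr and 150 and 145 TPM with shRBM10#2, and NM_001005335 had 159 and 184 TPM against 130.4 and 130.5 TPM.

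**Figure D4:**
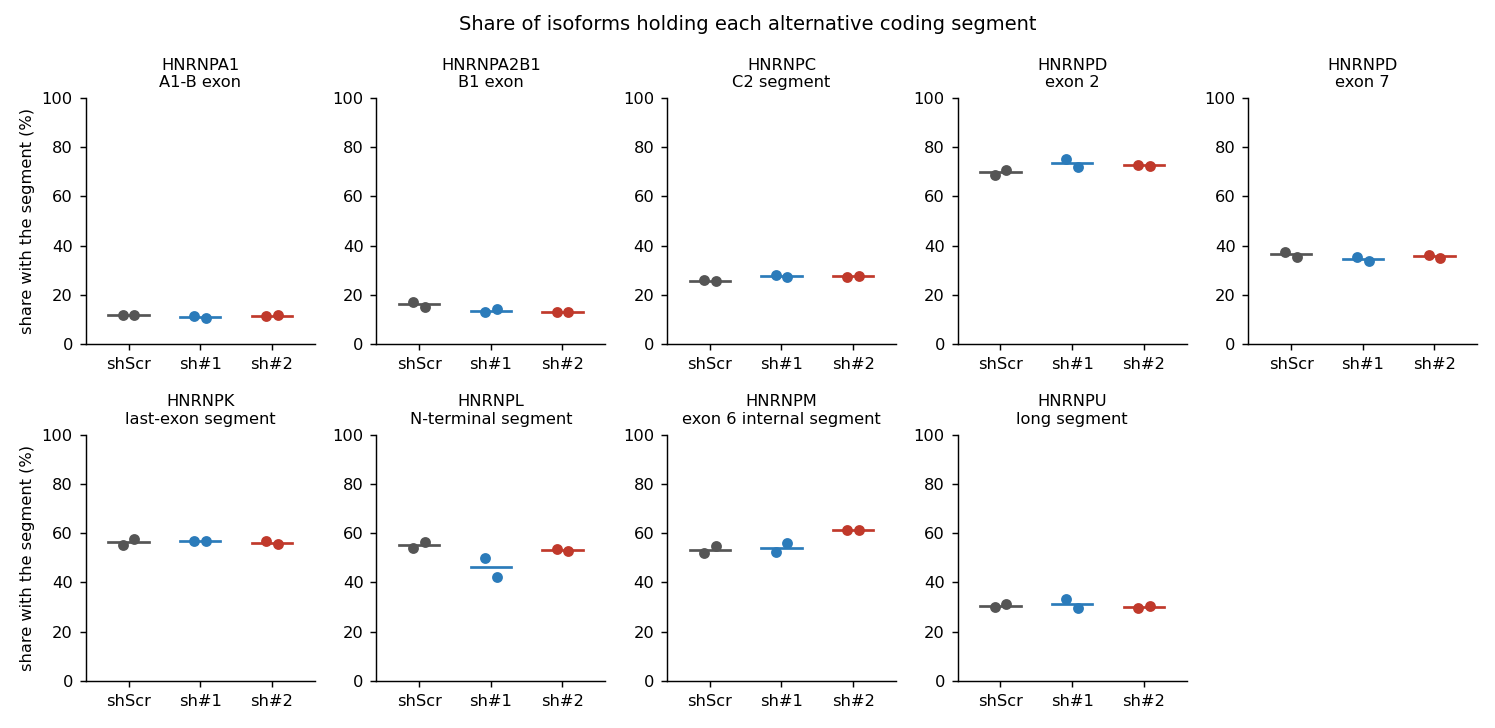
Share of each gene's transcripts (IsoPct, %, y axes from 0 to 100) that hold 9 alternative coding segments, with 1 point per library and a line at the mean of each group of 2 (sh#1, shRBM10#1; sh#2, shRBM10#2). The HNRNPM segment is highest in the shRBM10#2 libraries (61.2%), the HNRNPL segment lowest in the shRBM10#1 libraries (49.8% and 42.4%), and the last-exon segment of HNRNPK is level.

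In HNRNPD single isoforms were poorly reproduced between replicates. NM_031369 took 0.57% and 16.0% of HNRNPD in the shRBM10#2 libraries, NM_031370 took 35.8% and 19.2%, and NM_002138 took 37.1% and 53.3%. NM_001003810 took 5.14% and 0.00% in the shRBM10#1 libraries. The widest gap between replicates was 16.6 points, the largest of the 10 genes. The file lengths of the 4 isoforms, 2257, 2200, 2110 and 2053 nt, equal every combination of keeping or losing the 57-nt exon 2 and the 147-nt exon 7, which allowed the shares to be summed by exon.

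Summed in this way the replicates came together. Exon 7 was in 37.4% and 35.6% with shScr, 35.3% and 33.7% with shRBM10#1, and 36.3% and 35.2% with shRBM10#2, with overlapping groups and replicate gaps of at most 1.81 points. Exon 2 was in 68.8% and 70.9% with shScr, 75.1% and 72.1% with shRBM10#1, and 72.8% and 72.5% with shRBM10#2, with replicate gaps of at most 3.05 points. All 4 RBM10 KD libraries were above both shScr libraries for exon 2, by 3.76 and 2.81 points between means, but usage of HNRNPD summed by exon 2 gave an edgeR FDR of 1 for each shRNA.

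HNRNPC behaved alike. Single isoforms differed by up to 8.94 points between replicates, as for NM_001077443 with 13.9% and 22.9% in the shRBM10#1 libraries. NM_004500, the leading isoform, took 53.0% and 61.4% with shScr, 58.0% and 49.9% with shRBM10#1, and 52.3% and 45.1% with shRBM10#2. NM_031314 took 12.8% to 27.0% over the 6 libraries. The isoforms combine the C2 segment with an untranslated 26-nt exon at chr14:21263311-21263336, and the C2 sum differed by at most 0.85 points between replicates. The C2 segment was in 26.0% and 25.5% with shScr, 28.1% and 27.2% with shRBM10#1, and 27.3% and 27.8% with shRBM10#2. All 4 RBM10 KD libraries were above shScr, by 1.90 and 1.82 points between means. Usage over the single HNRNPC isoforms gave an edgeR FDR of 1 for each shRNA. The 26-nt exon was in 72.1% to 75.9%, with overlapping groups for shRBM10#2 and shScr. Both shRBM10#1 libraries, at 75.9% and 74.3%, lay above both shScr libraries, at 72.6% and 74.2%.

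**Figure D5:**
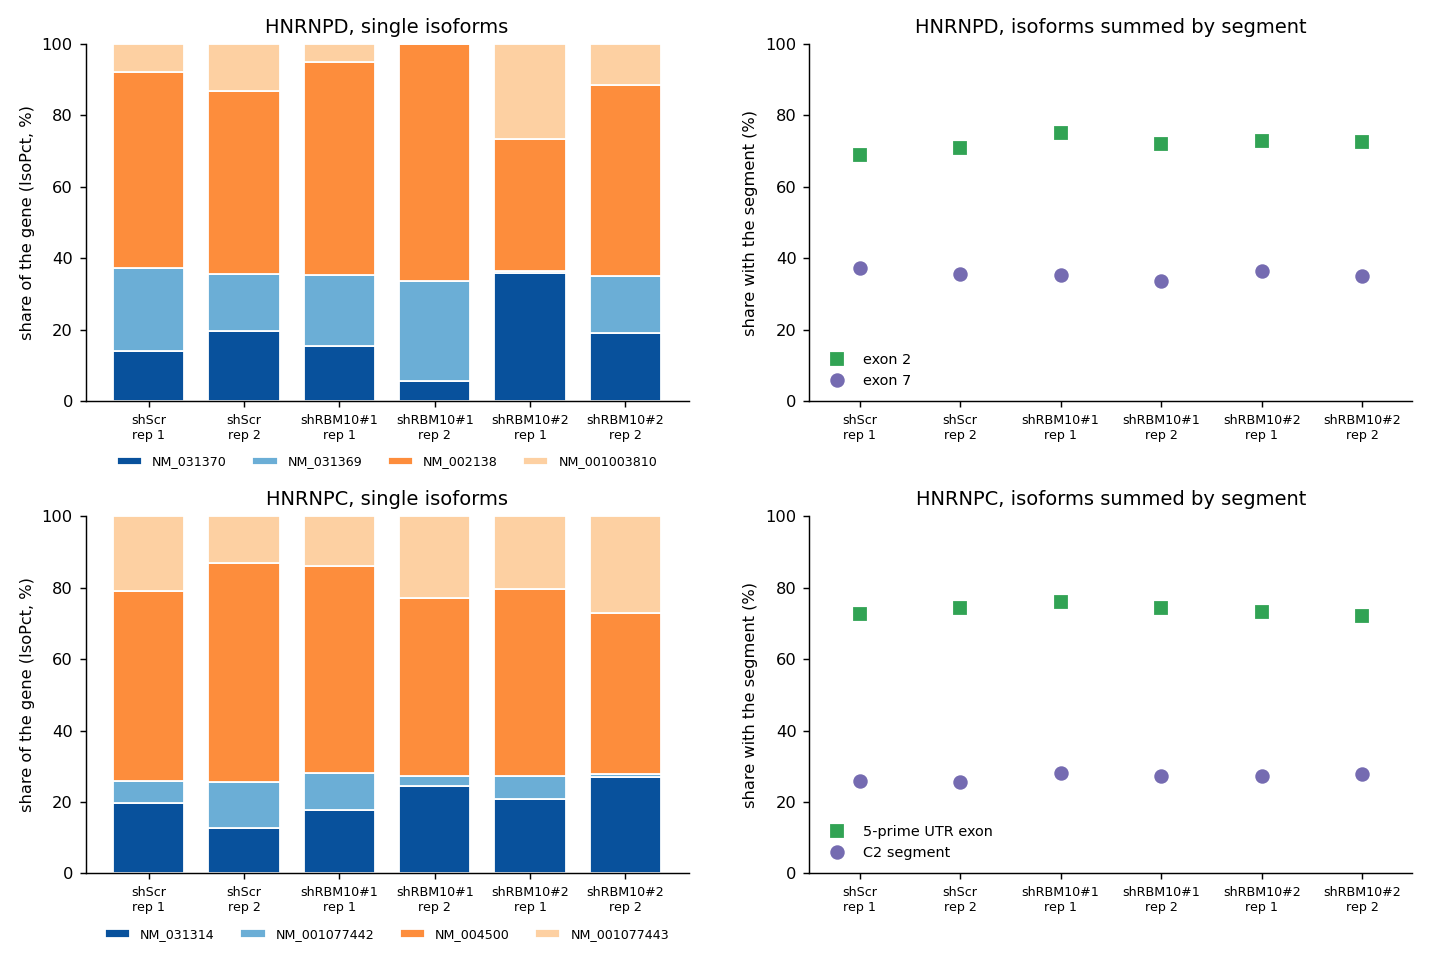
Left panels stack the single-isoform shares (IsoPct, %) of HNRNPD and HNRNPC in each library, and right panels plot the same shares summed by segment. Stacks shift between replicates of a group by up to 16.6 points in HNRNPD and 8.94 in HNRNPC, whereas the sums for exon 7 and the C2 segment stay within 1.81 and 0.85 points of each other in every pair of replicates.

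Coding forms of HNRNPA1 and HNRNPU differed little in share. NM_031157, which encodes the longer A1-B protein, took 11.7% and 12.01% of HNRNPA1 with shScr, 11.6% and 10.5% with shRBM10#1, and 11.4% and 11.7% with shRBM10#2, so that NM_002136 made up 88.0% to 89.5%. In HNRNPU the longer isoform, NM_031844, which has 57 more coding bases at chr1:244863617-244863673, took 30.1% and 31.1% with shScr, 33.2% and 29.6% with shRBM10#1, and 29.7% and 30.4% with shRBM10#2, and NM_004501 took the rest. Groups overlapped for HNRNPU. For HNRNPA1 the shRBM10#2 libraries reached the shScr range, and both shRBM10#1 libraries lay below both shScr libraries, with a usage FDR of 1 by edgeR.

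For HNRNPF and HNRNPH1 no alternative coding segment was followed, and their isoforms are given singly. NM_001098204 led HNRNPF at 37.0% to 41.5%, followed by NM_001098206 at 23.8% to 29.9% and NM_001098208 at 9.07% to 13.3%, and the other 3 isoforms took 5.03% to 10.3% each. NM_001257293 of HNRNPH1 took 50.8% and 52.1% with shScr, 49.1% and 54.4% with shRBM10#1, and 49.7% and 50.6% with shRBM10#2, and NM_005520 took the remainder. Usage passed in neither gene.

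Some members have near copies whose reads may be exchanged with them. HNRNPA1L2 held 0.573% to 0.749% as many counts as HNRNPA1 and HNRNPA1P33 0.244% to 0.529%, and HNRNPKP3 was listed at 0. Whether strand was used in counting is not given in the sources used here, and HNRNPU-AS1, antisense to HNRNPU, held 1.34% to 2.14% as many counts as HNRNPU.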

How the data were processed

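PC-9 RNA was sequenced in 6 libraries, 2 each of shScr, shRBM10#1 and shRBM10#2. The submitters' processing notes name STAR 2.4, RSEM 1.2.29, edgeR and hg19; read length and strand are not given in the sources used here. For each RefSeq isoform the authors deposited RSEM expected counts, TPM, FPKM, IsoPct in percent, and length and effective length. FPKM was not used. Groups were taken from the labels.

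Expected counts were rounded, for genes after summing isoforms, and tested with edgeR 4.0.16 (TMM, filterByExpr, quasi-likelihood F-test; diffSpliceDGE for isoform usage), with Benjamini-Hochberg FDR over all features and 0.05 as threshold. Single-shRNA contrasts were fitted to all 6 libraries. Alternatives used DESeq2 1.42.0, limma 3.58.1 on log2(TPM + 0.5), other filters and scaling, a replicate block, and each library left out. Scripts were tested on simulated data.

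Isoforms were summed by coding segment from file lengths and GENCODE 29 (GRCh38), whose coordinates are not those of hg19. Members, lists and tests were chosen with earlier results of these data known. All members, isoforms with a mean IsoPct of at least 10, and at most 3 other hnRNP genes per comparison, by smallest FDR, were named by rule, and further called ones after their values were seen. The limits given for counts of 0 cover counting error only. One listed gene and one member sequence are not reported here.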

Additional observations from a re-analysis of the deposited data

Results flagged for a closer look

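Gene totals of 3 members differed between the shRNAs, by edgeR's test of shRBM10#2 against shRBM10#1, which compares their effects relative to the shared shScr libraries. HNRNPD had a log2 FC of -0.263, HNRNPL of -0.259 and HNRNPM of -0.373. None of the 3 passed with limma on summed TPM or without shRBM10#2 replicate 2. RBM10 itself was lower with shRBM10#2 than with shRBM10#1, at a log2 FC of -1.11 (SE 0.0704), and the part of this in the member totals was not tested.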

How the results depend on the processing

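Precision was limited by 2 libraries per group. Counts of the 9 members called by gene total moved as follows. For shRBM10#2 against shScr, 0 passed when an absolute log2 FC above 1 was also required, against 4, where 185 of all genes passed. For shRBM10#2 against shRBM10#1, 0 passed with limma on TPM and 0 with that fold criterion, against 3. Of all genes 1311 and 169 passed there. For shRBM10#1 against shScr, 1 (HNRNPH1) passed without the filter on low counts, against 0, where 2588 genes passed in all. Member counts in these comparisons also moved with single libraries left out, which left a single library in a group. For RBM10 KD pooled, 2 passed as the mean of the shRNA coefficients, against 0, where 2611 genes passed in all. Changed usage with shRBM10#2 was called in 1 member (HNRNPA2B1) by limma diffSplice, against 0. Member isoforms called between the shRNAs numbered 1 without the fold criterion, against 0; this contrast of isoforms was added after the data were seen. Causes were not tested. In the remaining alternatives the member counts stayed within 1.5 times the reported ones.

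Uncalled log2 FC near 0 changed sign. HNRNPM with shRBM10#1 became -0.0468 with limma on TPM and ranged from -0.0745 to 0.167 with single libraries left out. HNRNPD with shRBM10#1 ranged from -0.144 to 0.059, and HNRNPH1 between the shRNAs from -0.254 to 0.0384.

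The labels give the groups the same replicate numbers, but deviations of same-numbered libraries from their group means were correlated at -0.0772 to -0.0091. Such a correlation over all features cannot tell whether same-numbered libraries shared a culture or preparation. With the replicate block, 4 members were called for shRBM10#2 against shScr, 3 for shRBM10#2 against shRBM10#1, and 0 for shRBM10#1 and for the pooled comparison.

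Isoforms meeting the on-and-off pattern of NM_002140 numbered 20 with a limit of at least 50 counts and 5 with at least 200, against 11. Summing isoforms by coding segment was added after the data were seen.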
